A study of Mus musculus with 28 samples.

Results

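Genes of the Notch pathway were followed across 3 cell populations of mouse bone marrow and across both genotypes of the Flt3-ITD knock-in mouse. They were taken by symbol from the deposited table and were 10 of its 25251 genes, comprising 4 receptors (Notch1, Notch2, Notch3 and Notch4), 4 ligands (Dll1, Dll4, Jag1 and Jag2) and 2 target genes (Hes1 and Hey1).

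Notch signaling passes between cells in contact. A Delta-like or Jagged ligand on a sending cell binds a Notch receptor on its neighbor, the receptor is cut first by an ADAM protease and then by gamma-secretase, and the released intracellular domain joins RBPJ and a Mastermind coactivator in the nucleus to switch on genes such as those of the Hes and Hey families. In blood vessels the pathway is known for arterial fate and sprouting, and in the marrow for ligands that endothelial and stromal cells present to blood-forming cells.

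RNA was measured in libraries from single mice of strain C57 BL6 aged 8 to 10 wk. Endothelial cells (EC, CD45-Ter119-CD31+) and mesenchymal stromal cells (MSC, CD45-Ter119-CD31-CD166-Sca1+) were sorted from bone-lining cells at 100 cells per library, and bone marrow mononuclear cells (MNC) were taken at 200 cells per library. Each population came from Flt3+/+ mice (WT) and from Flt3 ITD/ITD mice, which carry an internal tandem duplication of the receptor kinase gene Flt3 on both alleles of the endogenous locus in every cell, with 5 mice per genotype for EC and MSC and 4 for MNC. The cell number per library changed with the population, so the MNC libraries cannot be told apart from a larger input, and the sex of the mice was not given. In libraries of sorted pools, fewer cells with a transcript and less RNA per cell cannot be told apart.

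Total counts ranged from 6377013 to 33880743 per library (median 21194992), and a count of 3 was taken as the floor, which covers counting error only. Levels are given as RPKM, the count scaled to transcript length and library total, so that genes can be compared. The 7 endothelial markers summed to between 1491 and 2138 RPKM in EC libraries and to at most 28.5 in any other. The 7 mesenchymal markers summed to between 23376 and 26734 RPKM in MSC libraries, to between 181 and 469 in EC and to at most 31.9 in MNC. The 9 pan-leukocyte markers summed to between 5537 and 8447 RPKM in MNC. They stayed at or below 94.3 in EC and MSC apart from Flt3 ITD/ITD EC replicate 2 (356) and Flt3 ITD/ITD MSC replicate 5 (259.8), and population and genotype results were recomputed without these 2 libraries. Mural cell markers (6 genes of pericytes and smooth muscle) summed to between 195 and 1214 RPKM in EC and to between 20.2 and 170.0 in MSC.

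Start-site sequence was available for 8 of the 10 genes (9 start sites, RefSeq, GRCm38.p6). Hes1 and Hey1 were not in the table. The 250 bases upstream of the RefSeq start are shown for Dll4, a ligand high in EC, and for Notch2, the receptor low in EC, because these genes had opposite patterns over the populations. Capitals mark the ETS core CGGAAG, searched on both strands.
Dll4, chr2:119325534-119325783, plus strand: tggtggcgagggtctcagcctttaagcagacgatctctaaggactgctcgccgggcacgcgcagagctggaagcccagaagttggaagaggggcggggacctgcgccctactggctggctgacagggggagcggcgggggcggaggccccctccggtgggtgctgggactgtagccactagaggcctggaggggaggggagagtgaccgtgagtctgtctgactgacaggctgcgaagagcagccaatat
Notch2, chr3:98013288-98013537, plus strand: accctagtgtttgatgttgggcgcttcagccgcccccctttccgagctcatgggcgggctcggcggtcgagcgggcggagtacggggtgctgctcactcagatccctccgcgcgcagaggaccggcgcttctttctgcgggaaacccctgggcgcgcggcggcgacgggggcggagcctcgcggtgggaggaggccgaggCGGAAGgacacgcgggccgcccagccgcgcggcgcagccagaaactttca
CGGAAG was present in 1 of the 9 windows, that of Notch2, against 13.6% of 32851 promoters of the same length. The RBPJ core TGGGAA was present in 0 of 9 windows, against 21.6% of promoters, and the longer GTGGGAA, which holds the core, also in 0 of 9, against 5.42%. These counts say only that the letters were or were not in these windows.

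The receptors divided the populations. By RPKM, EC carried mainly Notch1 and Notch4, MSC almost only Notch2, and MNC Notch2 followed by Notch1. Of the summed receptor RPKM in EC, Notch1 made up 55.1% ± 13.8 (SD, n = 10), Notch4 29.4% ± 9.02 and Notch2 11.4% ± 5.13. In MSC, Notch2 made up 91.4% ± 2.77 (SD, n = 10). In MNC, Notch2 made up 62.5% ± 13.8, Notch1 23.4% ± 8.41 and Notch4 13.9% ± 5.63 (SD, n = 8). The shares of Notch4 depended on the transcript length in the RPKM, which for this gene differed between populations. Counts are not divided by length, so they weigh longer transcripts more. In EC the length in the RPKM had a median of 10709 bases for Notch2 and 3482 for Notch4. Of the summed receptor counts, Notch4 made up 14.6% ± 7.60 in EC, next to 15.9% ± 6.52 for Notch2. It made up 0.425% ± 0.154 in MSC and 1.41% ± 0.625 in MNC. The sum itself was 24.3 ± 7.08 RPKM in EC, 33.7 ± 4.93 in MSC and 24.5 ± 8.55 in MNC.

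Populations were compared in 1 fit of all 28 libraries with edgeR's quasi-likelihood test. A gene was called different when its adjusted p was below 0.1 and its mean RPKM differed between the groups by a log2 ratio of 1 or more. Of the 10 genes, 8 were called between EC and MSC (7 higher in EC and 1 lower), where the rule called 32.9% of 16897 tested genes (16.3% higher in EC and 16.6% lower). All 10 were called between EC and MNC (9 higher in EC and 1 lower), against 45.0% of tested genes (23.1% and 22.0%). Between MSC and MNC 7 were called (5 higher in MSC and 2 lower), against 44.3% (22.2% and 22.0%). The median log2 fold change over the 10 genes was 3.03 for EC over MSC, 7.08 for EC over MNC and 2.45 for MSC over MNC, and over all tested genes it was -0.01, 0 and -0.02.

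**Figure D1:**
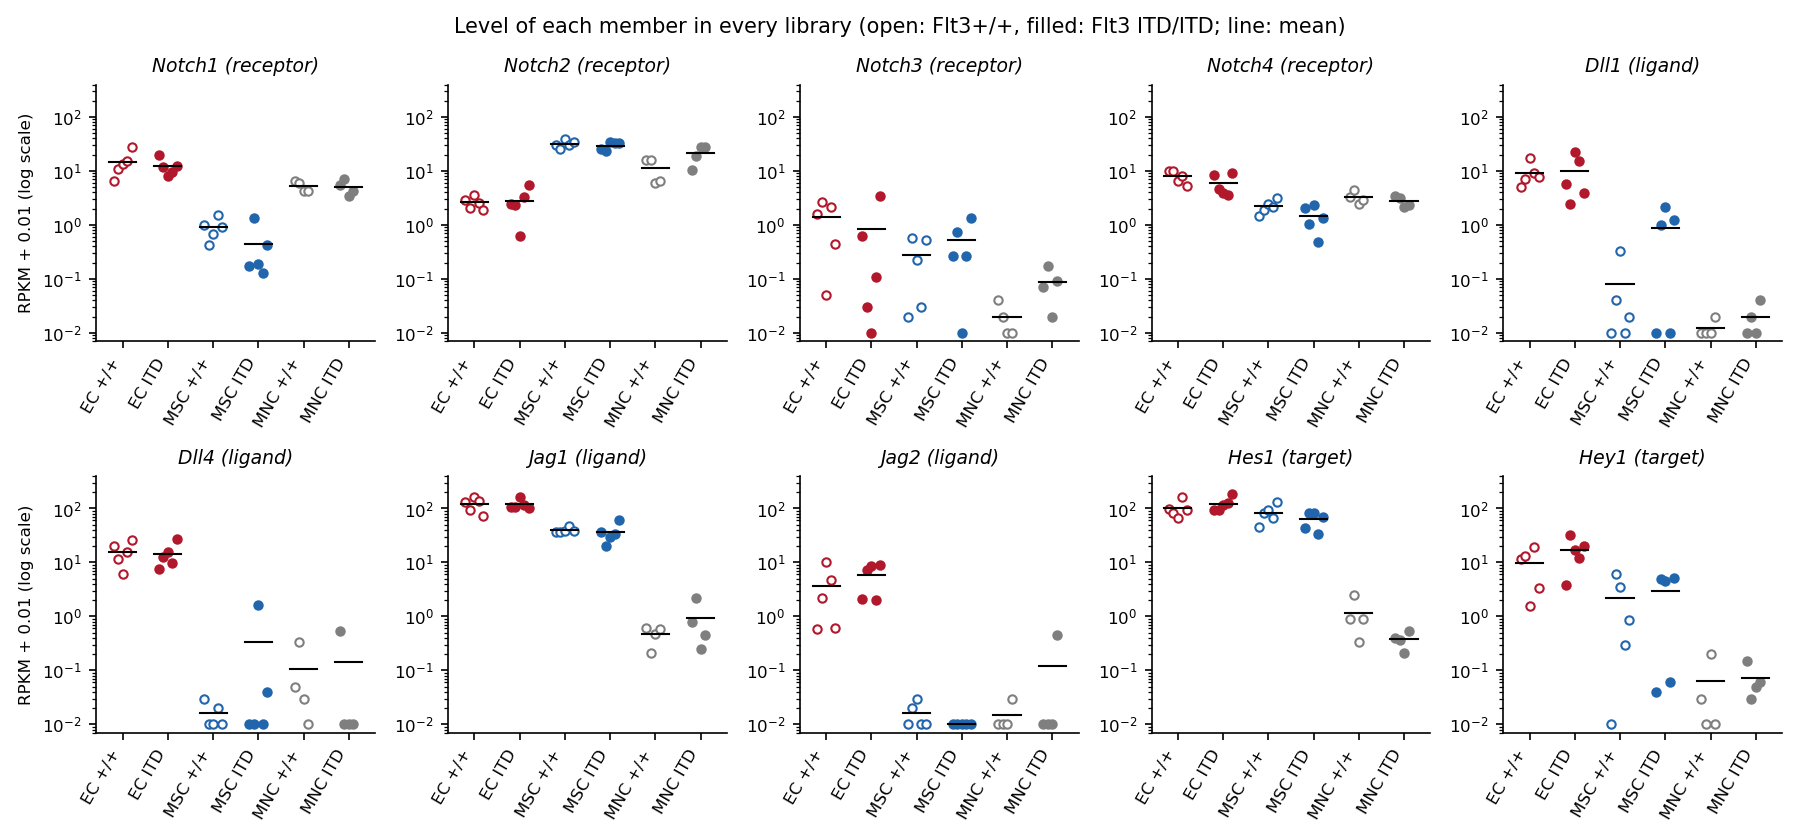
RPKM plus 0.01 on a log scale for each of the 10 genes in every library, by population and genotype (open circles, Flt3+/+; filled circles, Flt3 ITD/ITD; lines, group means). Notch2 lies at 23.1 to 38.7 RPKM in MSC and at 0.60 to 5.38 in EC, Jag1 at 72.3 to 167 in EC and at no more than 2.23 in MNC, and the open and filled circles overlap in every panel and population.

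Notch1, the receptor best known from T lineage commitment and from endothelial cells (GRCm38 chromosome 2, 26457903-26516663, minus strand, 34 exons in its longest coding transcript), ranged from 6.43 to 27.4 RPKM in EC (median 12.03), from 0.12 to 1.51 in MSC (median 0.54) and from 3.49 to 7.01 in MNC (median 4.92). The MSC values lay below those of both other populations without overlap, whereas EC and MNC overlapped. The log2 fold change was 4.04 ± 0.39 (SE) for EC over MSC (adjusted p = 1.07e-08) and 1.54 ± 0.38 for EC over MNC (adjusted p = 0.00169). For MSC over MNC it was -2.49 ± 0.38 (adjusted p = 5.65e-06).

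Notch2, a receptor needed for marginal zone B cells and active in bone cells (chromosome 3, 98013527-98150361, plus strand), had the reverse order. It ranged from 23.1 to 38.7 RPKM in MSC (median 31.7), from 5.98 to 28.3 in MNC (median 16.1) and from 0.60 to 5.38 in EC (median 2.5). No EC library reached the lowest value of either other population, and MSC and MNC overlapped. The log2 fold change was -3.75 ± 0.29 for EC over MSC (adjusted p = 1.51e-10) and -2.57 ± 0.28 for EC over MNC (adjusted p = 4.7e-08). MSC over MNC gave 1.19 ± 0.28 with an adjusted p of 0.00108, but the log2 ratio of mean RPKM was 0.92, under the fold rule, and it was called once Flt3 ITD/ITD MNC replicate 3 (1.27) or replicate 4 (1.25) was left out, or in Flt3+/+ libraries alone (1.63).

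Notch3, the receptor of mural cells (chromosome 17, 32120820-32166852, minus strand), was low and uneven, from 0 to 3.44 RPKM in EC (median 0.53), from 0 to 1.34 in MSC (median 0.26) and at most 0.16 in MNC, where the largest count was 27. EC and MSC were not separated (log2 fold change 1.29 ± 1.01, adjusted p = 0.361). Both were called higher than MNC, by 5.0 ± 1.32 (adjusted p = 0.00304) and 3.72 ± 1.24 (adjusted p = 0.0162), with overlapping values, and neither was called in Flt3 ITD/ITD libraries alone (3.35 and 2.93). Without Flt3 ITD/ITD EC replicate 5 the fold change of EC over MNC was 3.96, and without Flt3+/+ MNC replicate 1 the fold changes of EC and MSC over MNC were 5.59 and 4.30. Over the 10 EC libraries log2 Notch3 went with the summed mural markers (Pearson r = 0.62) and with the summed mesenchymal markers (r = 0.77), values that share each library's depth and sort. Log2 Notch4 did so as well (r = 0.73 with the mural and 0.61 with the mesenchymal sum), and log2 Notch2 went with the mesenchymal sum (r = 0.68). Hes1 and Dll4 gave 0.55 and 0.52 with the mesenchymal sum, and the remaining members -0.42 (Dll1) to 0.30 (Hey1). With the mural sum, the members other than Notch3 and Notch4 gave -0.62 (Jag2) to 0.43 (Notch2). Flt3 ITD/ITD EC replicate 5 had the highest mesenchymal sum (469 RPKM, next 284) and the highest Notch2, Notch3, Dll4 and Hes1. The part of mural or mesenchymal transcripts in the EC levels of these genes was not tested.

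Notch4, a receptor described mainly in endothelium (chromosome 17, 34564268-34588503, plus strand), ranged from 3.54 to 9.94 RPKM in EC (median 7.33), from 0.48 to 3.20 in MSC (median 1.95) and from 2.18 to 4.42 in MNC (median 3.02). EC lay above MSC in every library and overlapped MNC. On counts the log2 fold change was 3.93 ± 0.33 for EC over MSC (adjusted p = 1.14e-09) and 3.22 ± 0.35 for EC over MNC (adjusted p = 5.3e-08), while the log2 ratios of mean RPKM were only 1.94 and 1.21. MSC over MNC was -0.71 ± 0.32 (adjusted p = 0.0707) and was not called for its log2 ratio of -0.73.

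The scales differed because the transcript length behind the RPKM differed between populations. Dividing counts by RPKM and library total returns the length that the scaling used. For Notch4 it was 2153 to 5125 bases in EC (median 3482), 741 to 799 in the 7 MSC libraries with at least 20 counts (median 768) and 756 to 942 in MNC (median 790). The ranges did not overlap between EC and either other population. The GENCODE annotation, which is not the transcript set the authors aligned to, lists 12 Notch4 transcripts, of which 1 coding transcript of 6591 bases and 30 exons and 1 of 6380 bases annotated as nonsense-mediated decay are long, and the other 10 measure 247 to 804 bases. For 8 of the other members the highest implied length was at most 1.08 times the lowest. Notch1 was the exception at 1.52 times, with a median of 7185 bases in MNC against 9502 in EC and 9671 in MSC. Which transcripts the MSC and MNC reads came from was not tested. Notch1, Notch3, Notch4, Dll1 and Dll4 each overlapped a gene on the other strand, whose reads cannot be told apart without strand, and of these partners the table held 1, Gm14207 beside Dll4.

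**Figure D2:**
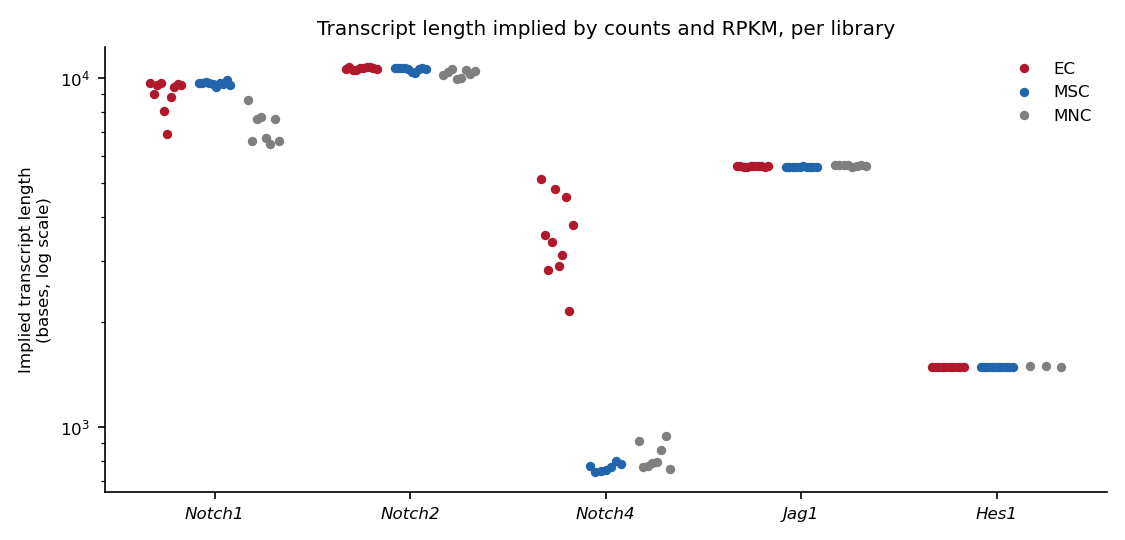
Transcript length implied by count, RPKM and library total (bases, log scale) for 5 of the genes, with 1 point per library of at least 20 counts, colored by population. Notch4 falls from between 2153 and 5125 bases in EC to at most 942 in MSC and MNC, while Notch2, Jag1 and Hes1 stay level.

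Ligands were high in EC, lower in MSC and nearly absent from MNC, and Jag1 dominated in both stromal populations. The 4 ligands summed to 149.7 ± 34.9 RPKM in EC, 38.6 ± 10.99 in MSC and 0.87 ± 0.64 in MNC (SD, n = 10, 10 and 8). Jag1 made up 80.1% ± 6.0 of the sum in EC and 98.1% ± 3.56 in MSC. Dll4 followed in EC with 10.8% ± 6.41, Dll1 with 6.12% ± 3.13 and Jag2 with 2.98% ± 2.16.

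Jag1, the Jagged ligand of endothelium and stroma (chromosome 2, 137081456-137116644, minus strand), ranged from 72.3 to 167 RPKM in EC (median 112), from 19.96 to 62.4 in MSC (median 36.7) and from 0.20 to 2.23 in MNC (median 0.52). The 3 populations did not overlap. The log2 fold change was 1.44 ± 0.30 for EC over MSC (adjusted p = 0.000471), 7.38 ± 0.43 for EC over MNC (adjusted p = 5.46e-13) and 5.94 ± 0.40 for MSC over MNC (adjusted p = 7.3e-12).

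Dll4, the Delta-like ligand of tip cells and arteries (chromosome 2, 119325784-119335962, plus strand), ranged from 6.01 to 27.8 RPKM in EC (median 13.9). It was at 0 to 0.03 in 9 of the 10 MSC libraries and at 1.6 in Flt3 ITD/ITD MSC replicate 3, which held 187 of the 190 MSC counts. In MNC it was above 3 counts in 2 of 8 libraries, with a highest value of 0.53 RPKM. EC was higher by 8.16 ± 1.39 on the log2 scale over MSC (adjusted p = 5.25e-05) and by 6.95 ± 1.42 over MNC (adjusted p = 0.000271), without overlap. Both sizes rested on single libraries. The first was 11.13 without Flt3 ITD/ITD MSC replicate 3, and the second was 10.12 without Flt3 ITD/ITD MNC replicate 1 and 7.93 without Flt3+/+ MNC replicate 2. MSC over MNC, -1.21 ± 1.13 (adjusted p = 0.413), did so too. It was -4.18 and called without Flt3 ITD/ITD MSC replicate 3 (adjusted p = 0.0037) and 1.96 without Flt3 ITD/ITD MNC replicate 1, with adjusted p from 0.0037 to 0.867 over the alternatives.

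Dll1, the Delta-like ligand of arterial endothelium and lymphoid niches (chromosome 17, 15367354-15376872, minus strand), ranged from 2.40 to 22.7 RPKM in EC (median 7.49) and from 0 to 2.10 in MSC, where 4 of 10 libraries exceeded 3 counts. The 8 MNC libraries held 4 Dll1 counts in all, at most 2 in any, so no fold is given against them. EC lay above MSC without overlap (log2 fold change 5.03 ± 1.03, adjusted p = 0.000454, and 6.42 without Flt3+/+ MSC replicate 3) and above MNC (adjusted p = 4.52e-06). MSC was called higher than MNC (adjusted p = 0.0019), with overlapping values, and not in Flt3+/+ libraries alone (adjusted p = 0.112).

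Jag2, a Jagged ligand known from lymphoid and limb development (chromosome 12, 112907819-112929776, minus strand), ranged from 0.57 to 10.1 RPKM in EC (median 3.45). All 10 MSC libraries together held 4 counts and none exceeded 3. In MNC 31 of 33 counts were in Flt3 ITD/ITD replicate 4. EC was called higher than MSC (adjusted p = 5.05e-06) and than MNC (adjusted p = 0.000124), without overlap. The call of MSC below MNC (adjusted p = 0.0522) was lost without Flt3 ITD/ITD MNC replicate 4 or without Flt3+/+ MNC replicate 4 (adjusted p of 1.0 in each).

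**Figure D3:**
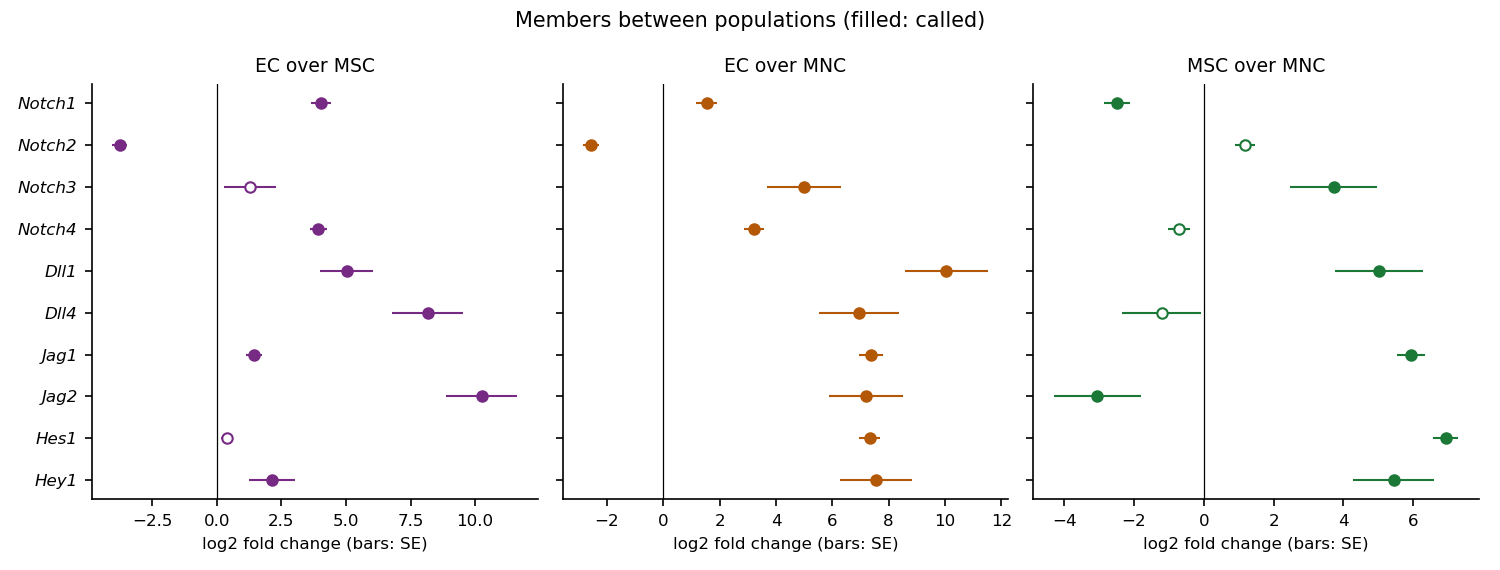
Log2 fold change with its SE for the 10 genes in EC over MSC, EC over MNC and MSC over MNC (28 libraries, edgeR; filled, called; the axes differ in range). Notch2 is the only gene to the left of zero in both EC panels, and Hes1 sits at 0.40 for EC over MSC and at 7.32 and 6.93 over MNC.

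Of the targets, Hes1 was high in EC and MSC, which overlapped, and Hey1 had its highest levels in EC. Hes1, a transcriptional repressor switched on by the RBPJ complex and also by other signals (chromosome 16, 30064384-30067796, plus strand), ranged from 67.5 to 187 RPKM in EC (median 97.0), from 34 to 131 in MSC (median 76.0) and from 0.20 to 2.46 in MNC (median 0.46). EC and MSC overlapped (log2 fold change 0.40 ± 0.25, adjusted p = 0.245), which does not show that they were alike. Both lay above MNC without overlap, by 7.32 ± 0.37 (adjusted p = 4.92e-14) and 6.93 ± 0.36 (adjusted p = 8.33e-14). Over the 10 EC libraries log2 Hes1 went with the summed RPKM of 7 immediate-early genes (Pearson r = 0.63), genes induced by handling as well as by signaling, and their part in its level was not tested.

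Hey1, a repressor switched on by the same pathway with a role in arterial endothelium (chromosome 3, 8663359-8667256, minus strand), ranged from 1.55 to 31.7 RPKM in EC (median 12.4) and from 0 to 6.10 in MSC (median 2.19). In MNC the largest count was 6. EC over MSC was 2.13 ± 0.88 (adjusted p = 0.0665) with overlapping values. This call was lost without the 2 libraries that held leukocyte transcripts (adjusted p = 0.112), within either genotype alone (0.301 and 0.204), and when Flt3+/+ EC replicate 4 (0.1001), Flt3 ITD/ITD EC replicate 2 (0.108), Flt3+/+ MSC replicate 4 (0.101) or Flt3+/+ MSC replicate 5 (0.102) was left out. Over MNC, EC was higher by 7.56 ± 1.28 without overlap (adjusted p = 2.81e-05) and MSC by 5.44 ± 1.16 with overlap (adjusted p = 0.000408), and without Flt3+/+ MNC replicate 3 these were 8.83 and 6.70.

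Values did not overlap for 7 of the 10 genes between EC and MSC, where 8.36% of tested genes were so separated. They did not overlap for 7 between EC and MNC (18.5% of genes) and for 3 between MSC and MNC (21.5%).

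A list of 45 further pathway genes, of which 39 passed the filter on low counts, had medians nearer to 0. Of the list, 11 were called higher and 4 lower in EC than in MSC, 12 higher and 4 lower in EC than in MNC, and 8 higher and 6 lower in MSC than in MNC. These were 15, 16 and 14 of the 39, where the rule called 32.9%, 45.0% and 44.3% of all tested genes, and nothing is read from these counts about the pathway. Their median log2 fold change was 0.16, 0.51 and 0.12, and stayed there with genes at 0 in a population set to a bound of 3 counts in each of its libraries. Among 5 genes of receptor glycosylation, the fringe gene Mfng, whose enzyme alters ligand preference, was at 22.8 ± 22.0 RPKM in EC and had no count in any MSC library, so that EC was at least 386-fold higher against 3 counts in each MSC library. The feedback gene Nrarp was at 7.56 ± 6.38 RPKM in EC and likewise without a count in MSC, at least 149-fold higher in EC by the same floor. MNC held a mean of 9.30 RPKM of Mfng and 0.22 of Nrarp. Both were called between EC and MSC (adjusted p = 2.53e-09 and 2.74e-06) and between MSC and MNC (adjusted p = 3.47e-09 and 0.000402).

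Of the other target genes, Hey2 averaged 3.32 ± 5.84 RPKM in EC and Heyl 0.80 ± 1.16, with at most 1 count of either in any MNC library, and both were called higher in EC than in MNC (adjusted p = 0.00221 and 0.00491). Heyl was also called higher in MSC than in MNC (adjusted p = 0.0072). Among 8 genes of receptor turnover, the Deltex ligase gene Dtx4 averaged 0.03 RPKM in EC against 2.09 ± 2.38 in MSC and 2.76 ± 1.10 in MNC, with log2 fold changes of -6.95 ± 1.02 (adjusted p = 7.15e-06) and -7.28 ± 1.04 (adjusted p = 2.9e-06). Numbl, a Numb-like inhibitor, averaged 1.25 ± 0.41 RPKM in MSC, above EC (log2 fold change of EC over MSC -2.65 ± 0.57, adjusted p = 0.000804) and above MNC (3.62 ± 0.66, adjusted p = 6.86e-05).

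Of the 10 cleavage genes, 1 was called between EC and MSC, 6 between EC and MNC (3 in each direction) and 2 between MSC and MNC (1 in each direction). Of the 8 genes of the nuclear complex, 3 were called between EC and MSC (1 higher in EC and 2 lower), 1 between EC and MNC and 3 between MSC and MNC, all 3 higher in MSC. All 18 passed the filter on low counts, and the shares of all tested genes called in these comparisons were again 32.9%, 45.0% and 44.3%.

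The question of whether the stroma of Flt3 ITD/ITD mice differs was asked for these genes within each population. None of the 10 was called between genotypes in EC, in MSC or in MNC by edgeR's quasi-likelihood test, by edgeR's exact test or by DESeq2, which gave no adjusted p for Dll4 and Jag2 in MSC and for Notch3, Dll1, Dll4, Jag2 and Hey1 in MNC. The background was low, at 0.00810% of 12351 tested genes in EC, 0.0295% of 13574 in MSC and 0.0144% of 13926 in MNC by the quasi-likelihood test. DESeq2 called 1.67%, 0.986% and 1.46% of its tested genes, and edgeR's exact test 0.130%, 0.147% and 1.06%. All 10 genes passed the filter on low counts in EC, 7 in MSC and 5 in MNC, and edgeR's exact test covered only these. The others were fitted by the quasi-likelihood test without the filter, where the lowest adjusted p was 0.562 (Notch3 in MNC). At an unadjusted p below 0.05 there were 0 of the 10 genes in EC (4.99% of all genes tested), 1 in MSC (4.24%) and 1 in MNC (10.4%). These shares are over genes that passed the filter. Of the members that passed it, 0 in EC, 0 in MSC and 1 in MNC had such a p. In exact two-sided permutation tests of RPKM, 0 of 30 fell below 0.05, with lowest p of 0.222 in EC, 0.127 in MSC and 0.0857 in MNC, where the smallest p that 5 against 5 and 4 against 4 mice allow is 0.00794 and 0.0286. No gene was free of overlap between genotypes, as 1.14%, 0.914% and 6.71% of tested genes were.

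**Figure D4:**
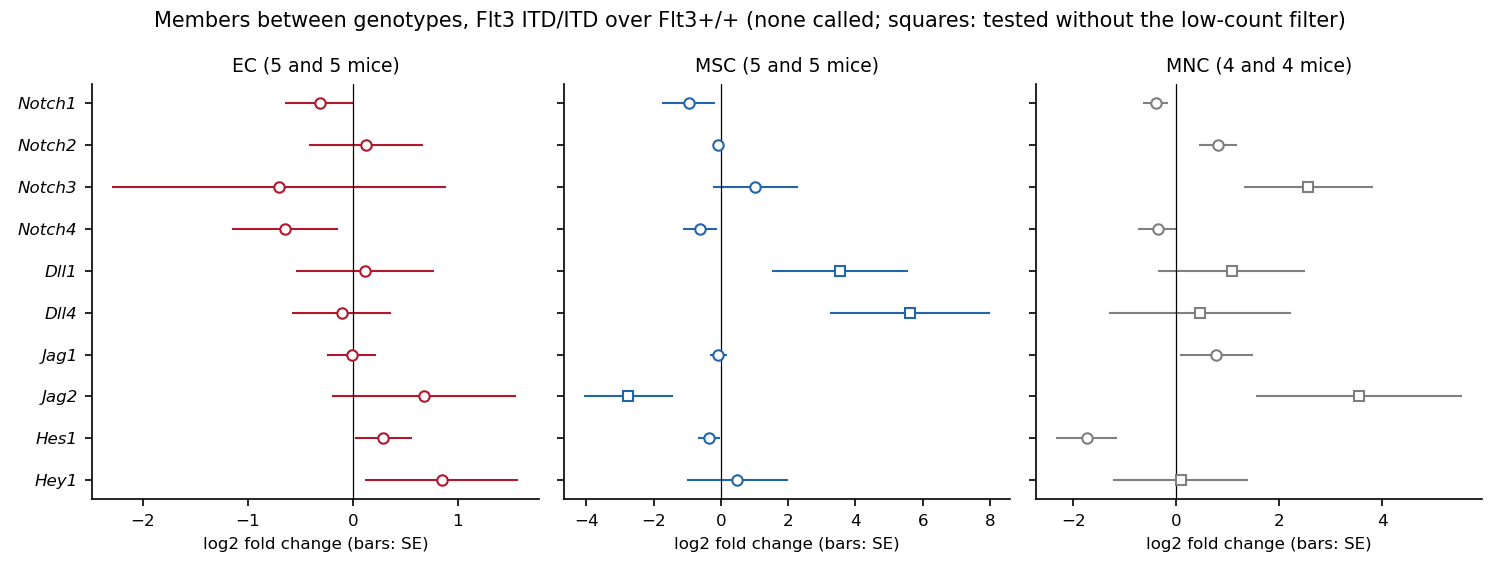
Log2 fold change of Flt3 ITD/ITD over Flt3+/+ with its SE for the 10 genes in each population (edgeR; squares, genes too low for the count filter and fitted without it; the axes differ in range). In EC the 10 genes lie between -0.70 and 0.85, and Hes1 in MNC lies at -1.74.

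In EC, Notch1 was at 6.43, 10.7, 13.7, 15.4 and 27.4 RPKM in Flt3+/+ mice and at 19.4, 11.7, 8.07, 9.72 and 12.3 in Flt3 ITD/ITD mice. The Flt3 ITD/ITD values lay inside the Flt3+/+ range (log2 fold change -0.32 ± 0.33, adjusted p = 0.9998). Notch4 was at 9.92, 9.94, 6.46, 8.20 and 5.28 RPKM against 8.58, 4.68, 3.97, 3.54 and 9.27. Its 3 lowest values were in Flt3 ITD/ITD mice (-0.65 ± 0.51, adjusted p = 0.9998).

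The main EC ligands overlapped as well. Jag1 was at 135, 94.9, 167, 138 and 72.3 RPKM in Flt3+/+ EC and at 105, 107, 163, 118 and 102 in Flt3 ITD/ITD EC (log2 fold change -0.01 ± 0.23). Dll4 was at 19.9, 11.6, 6.01, 15.7 and 25.7 against 7.45, 12.4, 15.3, 9.90 and 27.8 (-0.10 ± 0.47). Dll1 ranged from 4.97 to 17.0 against 2.40 to 22.7 and Jag2 from 0.57 to 10.1 against 1.98 to 8.92, with log2 fold changes of 0.12 ± 0.66 and 0.68 ± 0.88. The adjusted p of each of these 4 ligands was 0.9998.

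The EC targets were on average higher in Flt3 ITD/ITD mice but within the spread. Hes1 was at 99.5, 83.7, 67.5, 166 and 94.6 RPKM in Flt3+/+ EC and at 92.0, 92.9, 116, 127 and 187 in Flt3 ITD/ITD EC. Hey1 was at 11.7, 13.0, 1.55, 19.3 and 3.32 against 3.87, 31.7, 17.3, 11.9 and 19.8. Their log2 fold changes were 0.29 ± 0.27 and 0.85 ± 0.73, each with an adjusted p of 0.9998.

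In MSC the main receptor, ligand and target overlapped between genotypes. Notch2 was at 30.3, 25.7, 38.7, 30.9 and 34.1 RPKM in Flt3+/+ mice and at 25.8, 23.1, 34.01, 32.6 and 32.5 in mice with Flt3 ITD/ITD (-0.07 ± 0.18 on the log2 scale). Jag1 was at 37.3, 36.1, 37.6, 47.8 and 38.9 against 36.0, 19.96, 29.6, 33.8 and 62.4 (-0.08 ± 0.25). Hes1 was at 45.0, 81.9, 92.7, 66.1 and 131 against 44.3, 82.1, 83.7, 34 and 70.2 (-0.35 ± 0.32), and the adjusted p of all 3 was 0.9994.

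Some low values in MSC rested on single libraries. Dll4 was the gene with an unadjusted p below 0.05 (0.0372, adjusted p = 0.598), from the 187 counts of Flt3 ITD/ITD replicate 3 against at most 1 count in any Flt3+/+ MSC library. The endothelial markers of that library summed to 12.4 RPKM, the lowest of the 5 Flt3 ITD/ITD MSC libraries. Its 6 arterial endothelial markers (11.8 RPKM) and 4 sinusoidal endothelial markers (1.91 RPKM) had the highest sums of the 5. These sums rested on few genes, as 4 of the 6 arterial markers and 1 of the 4 sinusoidal markers had no count in that library. Over all 10 MSC libraries, 1 of the 6 arterial markers reached a mean of 1 RPKM. Flt3+/+ MSC replicates 2 and 3 had higher arterial sums (17.5 and 13.4 RPKM), sinusoidal sums of 1.89 and 1.87, and no Dll4 count. The part of endothelial transcripts in this Dll4 value of Flt3 ITD/ITD replicate 3 was not tested. Each of the 10 MSC libraries was left out in turn. In the permutation tests, 4 of these 10 settings gave 1 of the 10 genes below 0.05, and 3 genes were involved. By edgeR's quasi-likelihood test, none of the genes that passed the filter was called in any of the 10 settings. Notch1 gave a difference of -0.67 RPKM without Flt3 ITD/ITD MSC replicate 2 (exact p = 0.0238), and Jag1 one of -9.69 without replicate 5 (exact p = 0.00794), the library with leukocyte transcripts. Dll1 gave 1.01 without replicate 1 or replicate 4 (exact p = 0.0476 each).

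In MNC, Flt3 ITD/ITD mice had a lower mean of Hes1 and a higher mean of Notch2, and neither was called. Hes1 was at 0.87, 2.46, 0.33 and 0.88 RPKM in Flt3+/+ mice and at 0.39, 0.36, 0.20 and 0.52 in Flt3 ITD/ITD mice, from 6 to 65 counts per library. The groups overlapped through Flt3+/+ replicate 3 (0.33), and the log2 fold change was -1.74 ± 0.60 (unadjusted p = 0.0168, adjusted p = 0.419, from 0.212 to 0.809 over the alternatives). Notch2 was at 16.1, 16.0, 5.98 and 6.53 against 10.2, 19.1, 28.3 and 28.3 (0.82 ± 0.37, unadjusted p = 0.0508, adjusted p = 0.478). The permutation p was 0.114 for each. Each of the 8 MNC libraries was left out in turn, and 3 of these 8 settings gave 1 gene below 0.05. A permutation p of 0.0286 was reached for Hes1 without Flt3+/+ replicate 3, for Notch2 without Flt3 ITD/ITD replicate 1 and for Notch3 without Flt3 ITD/ITD replicate 3. By edgeR's quasi-likelihood test, none of the genes that passed the filter was called in any of the 8 settings. Notch1 was at 6.37, 6.04, 4.21 and 4.29 RPKM against 5.55, 7.01, 3.49 and 4.18 (log2 fold change -0.40 ± 0.24, adjusted p = 0.582).

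The MNC libraries also differed in immediate-early genes. Replicates 3 and 4 of both genotypes had summed immediate-early RPKM of 17.5 to 29.9, whereas replicates 1 and 2 had 258 to 420. The labels name no batch, and the division was made after the values had been seen, so the values are given as a description. In replicates 3 and 4 Notch2 was at 5.98 and 6.53 RPKM in Flt3+/+ mice against 28.3 and 28.3 in those with Flt3 ITD/ITD (1.79 on the log2 scale). In replicates 1 and 2 it was at 16.1 and 16.0 against 10.2 and 19.1 (-0.11). The log2 fold change of Hes1 was -1.17 in replicates 3 and 4 and -2.10 in replicates 1 and 2. Over the 8 MNC libraries log2 Notch1 and Notch4 went with the immediate-early sum (Pearson r = 0.88 and 0.83). Notch2 and Hes1 did so less (r = 0.07 and 0.36), and the remaining members gave -0.48 (Dll1) to 0.62 (Dll4). The part of what sets these libraries apart was not tested.

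**Figure D5:**
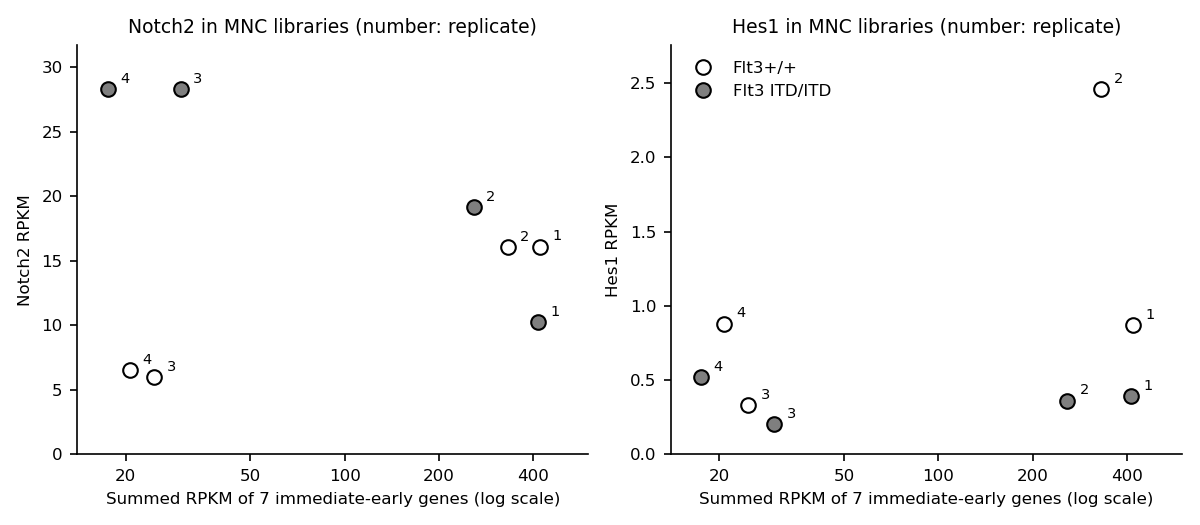
RPKM of Notch2 and Hes1 against the summed RPKM of 7 immediate-early genes (log scale) in the 8 MNC libraries, numbered by replicate (open, Flt3+/+; filled, Flt3 ITD/ITD). Notch2 is at 28.3 RPKM in Flt3 ITD/ITD replicates 3 and 4 and below 7 in Flt3+/+ replicates 3 and 4, and it does not separate the genotypes in replicates 1 and 2.

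The difference between populations in their genotype effect was tested as an interaction. None of the 10 genes passed an adjusted p below 0.1 by edgeR, where the rule called 0.379% of tested genes for EC against MSC, 0.0118% for EC against MNC and 0.00592% for MSC against MNC. At an unadjusted p below 0.05 there were 1, 1 and 3 genes, against 10.6%, 8.23% and 5.94% of all genes. The 3 for MSC against MNC were Dll4, Jag2 and Hes1. Of these, Dll4 had 187 of its 190 MSC counts in Flt3 ITD/ITD MSC replicate 3. Jag2 had 31 of its 33 MNC counts in Flt3 ITD/ITD MNC replicate 4, so no excess is read from the 3. Hes1 for EC against MNC was the one with the lowest p, with a genotype effect 2.03 ± 0.56 higher in EC than in MNC on the log2 scale (adjusted p = 0.315). DESeq2 gave 2.03 with an adjusted p of 0.021 for it and called 2.12% of its tested genes, and the adjusted p ran from 0.021 to 0.559 over the alternatives.

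No member of the 45 further pathway genes was called between genotypes in any population by edgeR or by DESeq2, and 3, 2 and 3 of them had an unadjusted p below 0.05 in EC, MSC and MNC. Of the list, 36, 32 and 34 genes passed the filter on low counts, and of these 2, 1 and 2 had such a p, against 4.99%, 4.24% and 10.4% of all genes tested. Their median log2 fold changes were 0.15, 0.10 and 0.11, against -0.01, 0.03 and -0.01 over all tested genes.

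Over the 28 libraries, the genes whose log2 levels (RPKM plus 1) were most like each member were found among 15250 genes with a mean of at least 1 RPKM in some population. Libraries of a population share sort and cell number, so these Pearson correlations describe mainly population levels. Jag1 went most closely with Tm4sf1 (r = 0.988), Cav1 and Col4a2, and Dll4 with Gpihbp1 (r = 0.971), Thrsp and Rbp7. Jag2 went with Nova2 (r = 0.935), Btnl9 and Cyyr1, and Dll1 with Slfn5os (r = 0.943), Tmem88 and Unc45b. Notch1 went with AK075572 (r = 0.955), Gimap6 and Arap3, Notch4 with Gm19757 (r = 0.885), Plxnd1 and Rassf3, and Notch2 with Qpct (r = 0.938), 5430435G22Rik and Fam46a. Hes1 went with Id3 (r = 0.982), Igfbp7 and Sparcl1, and Hey1 with Pik3r3 (r = 0.883), Ugcg and Ccdc85b. Notch3 had the loosest match, with Higd1b (r = 0.818), Itga3 and 4930449E18Rik.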

How the data were processed

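Libraries were assigned to population, genotype and replicate from their labels. The authors aligned single-end 51-base reads with Bowtie to mm10 transcripts, discarded reads that mapped to more than 1 place, and deposited expected counts from RSEM as whole numbers and RPKM for the same genes. Counting was not stated to use strand. Counts were tested in R 4.3.3 with edgeR 4.0.16 (quasi-likelihood, TMM, the package's filter on low counts, no covariate), with Benjamini-Hochberg adjustment over all tested genes, in 1 fit of 28 libraries for populations and interactions and in 1 fit per population for genotypes. The SE given with a log2 fold change was its size divided by the square root of the quasi-likelihood F statistic, not a separate estimate. The threshold was an adjusted p below 0.1 and, except for interactions, mean RPKM that differed by a log2 ratio of 1 or more. Other tests were edgeR's exact test and DESeq2 1.42.0. RPKM served for levels, shares and exact permutation tests across mice. The scripts were tested on simulated data.

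The 10 genes, the pathway list and the marker lists were chosen with earlier results of these data known. The text names all 10 members, the 2 pathway genes with the largest log2 fold change in each direction among those called in each population contrast, and the 3 genes most correlated with each member. A gene that this rule would name is left out of the text. Replicate numbers were not taken as pairs, because deviations from group means correlated by -0.07 to 0.07 between libraries of the same number. Gene positions are from GENCODE M21 on GRCm38. Whether libraries came from separate mice rests on the methods of the study. Alternatives covered normalization, filter, fold rule, libraries in the fit, genotype, replicate block and leaving out each library.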

Additional observations from a re-analysis of the deposited data

Results flagged for a closer look

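In 54 groups of 4 or 5 libraries, a gap test of the highest and the lowest value singled out 1 library in 10. Chance does so in about 5% of groups of normally distributed values. Groups with most values at or near 0 are not of that kind, so no excess over chance is read from this count. Most were low genes with reads in a single library. Dll4 stood at 1.6 RPKM in Flt3 ITD/ITD MSC replicate 3 (next value 0.03), at 0.53 in Flt3 ITD/ITD MNC replicate 1 (next 0) and at 0.32 in Flt3+/+ MNC replicate 2 (next 0.04). Jag2 stood at 0.45 in Flt3 ITD/ITD MNC replicate 4 (next 0), Hey1 at 0.19 in Flt3+/+ MNC replicate 3 (next 0.02) and Dll1 at 0.32 in Flt3+/+ MSC replicate 3 (next 0.03). Notch1 stood at 1.33 in Flt3 ITD/ITD MSC replicate 2 (next 0.42) and Notch3 at 3.44 in Flt3 ITD/ITD EC replicate 5 (next 0.62). Among the high genes, Jag1 stood at 163.34 in Flt3 ITD/ITD EC replicate 3 (next 117.99) and at 47.75 in Flt3+/+ MSC replicate 4 (next 38.94).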

How the results depend on the processing

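The counts of genes called kept within 1.5 times of their main value in 453 recomputations and moved further in 9. These included 1 gene in the interaction of EC with MNC under DESeq2 (Hes1). Leaving out each library gave 0 to 1 gene with a permutation p below 0.05 in MSC and in MNC. The remaining count was 1 of the 10 genes, Notch2, between genotypes in MNC replicates 3 and 4 alone. That division was made after seeing the data and left 2 libraries per genotype. The share of all genes called in that fit is not given, so no difference is read from this count. Between populations, 1086 recomputed values of single genes kept direction and call, 12 lost the call, 6 gained it and 4 reversed. MSC over MNC reversed for Dll4 in Flt3 ITD/ITD libraries alone (1.42) and for Jag2 in Flt3+/+ libraries alone (0.058), and leaving out each library gave -4.18 to 1.96 and -3.67 to 0.028. Between genotypes, where no gene was called, some directions turned. In EC the replicate block gave Notch2 -0.061, Dll1 -0.22 and Jag1 0.025, no filter gave Jag1 0.026, and leaving out the 2 libraries with leukocyte transcripts gave it 0.019. In MNC, replicates 1 and 2 gave Notch2 -0.11 and replicates 3 and 4 gave Jag1 -1.03. Leaving out each library gave, in EC, Notch2 -0.23 to 0.37, Dll1 -0.44 to 0.50, Dll4 -0.45 to 0.16 and Jag1 -0.16 to 0.16, in MSC Notch2 -0.14 to 0.022 and Jag1 -0.33 to 0.069, and in MNC Jag1 -0.15 to 1.10. The causes were not tested.

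The replicate block moved 1 call, Jag2 for MSC over MNC (-2.24, adjusted p = 0.181). The labels name no link between same-numbered libraries beyond the number, but MNC replicates 3 and 4 of both genotypes shared low immediate-early sums. Most libraries held few counts of Dll1, Dll4, Jag2, Notch3 and Hey1 in MNC and of Dll1, Dll4 and Jag2 in MSC.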
